A study of Mus musculus with 13 samples.

Results

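The nuclear genes of oxidative phosphorylation were followed in 13 mouse NUT carcinoma (mNC) tumors with and without Sox2, complex by complex. Members were the protein-coding genes whose GENCODE symbol starts with Nduf, Uqcr or Atp5, or with Cox4 to Cox8 followed by a letter, together with Sdha, Sdhb, Sdhc, Sdhd, Cyc1 and Cycs. The rule took 96 of the 55332 genes with values, under 95 symbols because Atp5o has 2 gene identifiers. Of these, 36 belonged to complex I, 8 were complex I assembly factors, 4 belonged to complex II, 9 to complex III, 20 to complex IV and 18 to complex V, and Cycs encodes the soluble carrier cytochrome c. Ndufa4 and its isoform Ndufa4l2 were placed in complex IV, where the NDUFA4 protein is found, and Atp5s stayed with complex V by name although its protein is not a subunit of the enzyme.

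In oxidative phosphorylation, complexes I and II pass electrons from NADH and succinate to ubiquinone, complex III passes them to cytochrome c, and complex IV passes them to oxygen. Complexes I, III and IV pump protons across the inner mitochondrial membrane, and complex V, the ATP synthase, uses the returning protons to make ATP. All complexes except complex II are built from nuclear and mitochondrial gene products together, and several complex IV subunits exist as pairs of isoforms whose use differs between striated muscle and other tissues.

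Bulk RNA-seq was performed on ribosomal RNA-depleted total RNA of whole tumors. Every tumor, controls included, carried 1 NUT carcinoma translocator allele (NCT+/-), on which Cre acts to start the tumor. Oral WT tumors (n = 4) were KRT14-Cre; NCT+/- and pancreatic WT tumors (n = 4) were Pdx1-Cre; NCT+/-. Pancreatic KO tumors (n = 3) are labelled Pdx1-Cre; NCT+/-; Sox2fl; fl, and oral KO tumors (n = 2) are labelled KRT4Cre; NCT+/-; Sox2fl/fl, while the methods of the study name a KRT14-Cre driver. Cre acts in Krt14-expressing epithelium or in the Pdx1 lineage, so host cells within a tumor keep Sox2. The labels number the tumors within a group without naming animals, and p-values therefore measure the spread between these tumors.

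Total estimated counts were 11735315 and 20432164 in oral KO tumors, from 29394258 to 40420228 in oral WT tumors, from 40964533 to 46134830 in pancreatic WT tumors and from 89562790 to 120482829 in pancreatic KO tumors. Sox2 was between 9.04 and 34.1 CPM (counts scaled to library size and TMM-normalized) in the 8 WT tumors and at 0.039 CPM or less in the 5 KO tumors. Squamous carcinoma markers (10 genes, such as Krt5 and Trp63) summed to between 5017 and 23630 CPM in every tumor. Oral KO replicate 1 stood apart, with 59.5% of its counts in protein-coding genes against 84.47% in oral KO replicate 2 and between 85.05% and 91.67% in the other 11 tumors. Skeletal muscle markers (23 genes) summed to 6346 and 3530 CPM in the oral KO tumors, to 744.9 CPM in oral WT replicate 4 and to at most 76.6 CPM in the other 10 tumors. In bulk RNA, fewer cells of a type and less RNA per cell cannot be told apart.

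The question of the first comparison was whether tumors of the oral mucosa that lost Sox2 differ in these genes from oral WT tumors. In oral KO tumors 38 of the 93 members tested were lower and 1, Cox7a1, was higher (edgeR, adjusted p under 0.05 over all genes tested), and 86 of the 93 had a fold change below zero. Of all 22342 genes tested, 4.58% were called lower and 9.2% higher. For 24 members the fall was more than 2-fold, a rule met by 2.89% of all genes. Both oral KO tumors lay below all 4 oral WT tumors for 66 members, against 22.6% of all genes. Members had a median log2 fold change of -0.80, beside -0.003 for all genes and -0.21 for protein-coding genes.

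**Figure D1:**
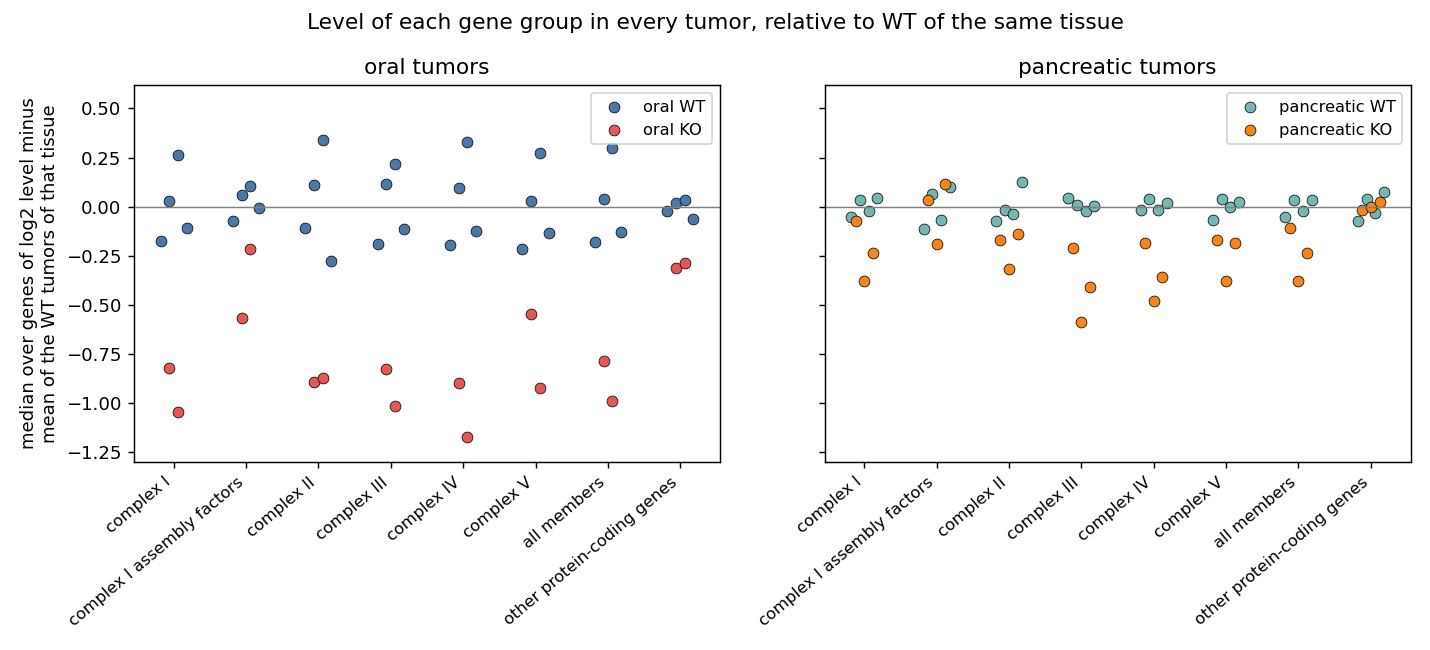
Median over the genes of each group of the log2 level minus the mean of the WT tumors of the same tissue (vertical axis), with 1 point per tumor; oral tumors are on the left and pancreatic tumors on the right, and only genes with at least 10 counts in every tumor enter. For all members the oral KO tumors sit at -0.79 and -0.99, below every oral WT tumor (-0.18 to 0.30), while other protein-coding genes sit at -0.31 and -0.29.

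Each KO tumor was low when tumors were taken singly. Over the 90 members with at least 10 counts in every tumor, the median distance from the oral WT mean was -0.79 in oral KO replicate 1 and -0.99 in replicate 2, with 83 and 85 of the 90 below zero. The oral WT tumors spread from -0.18 to 0.30, oral WT replicate 3 being the highest. Scaled to protein-coding counts alone (protein-coding CPM), which sets aside the low protein-coding content of oral KO replicate 1, the members summed to 5021 and 4773 in the KO tumors and to between 7024 and 8977 in the WT tumors. The groups did not overlap on this scale either.

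At an unadjusted p under 0.05, 60 of the 93 were lower, against 15.7% of all genes. The calls depended on which tumors and genes entered the fit. Without oral WT replicate 1, oral WT replicate 2, oral KO replicate 1 or oral KO replicate 2, no member passed the threshold (smallest adjusted p between 0.051 and 0.0687, edgeR), with between 41 and 58 members lower at an unadjusted p under 0.05 in these 4 fits, against 10.9% to 13.5% of all genes. Without oral WT replicate 3, 19 passed, and without oral WT replicate 4, 31 passed. An edgeR fit on protein-coding genes alone called 0 members lower (smallest adjusted p = 0.0595), beside 0.0489% of all genes in that fit. At an unadjusted p under 0.05 it had 50 members lower against 12.3% of all genes. DESeq2 called 49 lower, with 10.7% of all genes. The median over members stayed between -0.94 and -0.61 in each of these fits. The muscle marker sum given above was higher in both KO tumors, and its part in these differences was not tested.

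**Figure D2:**
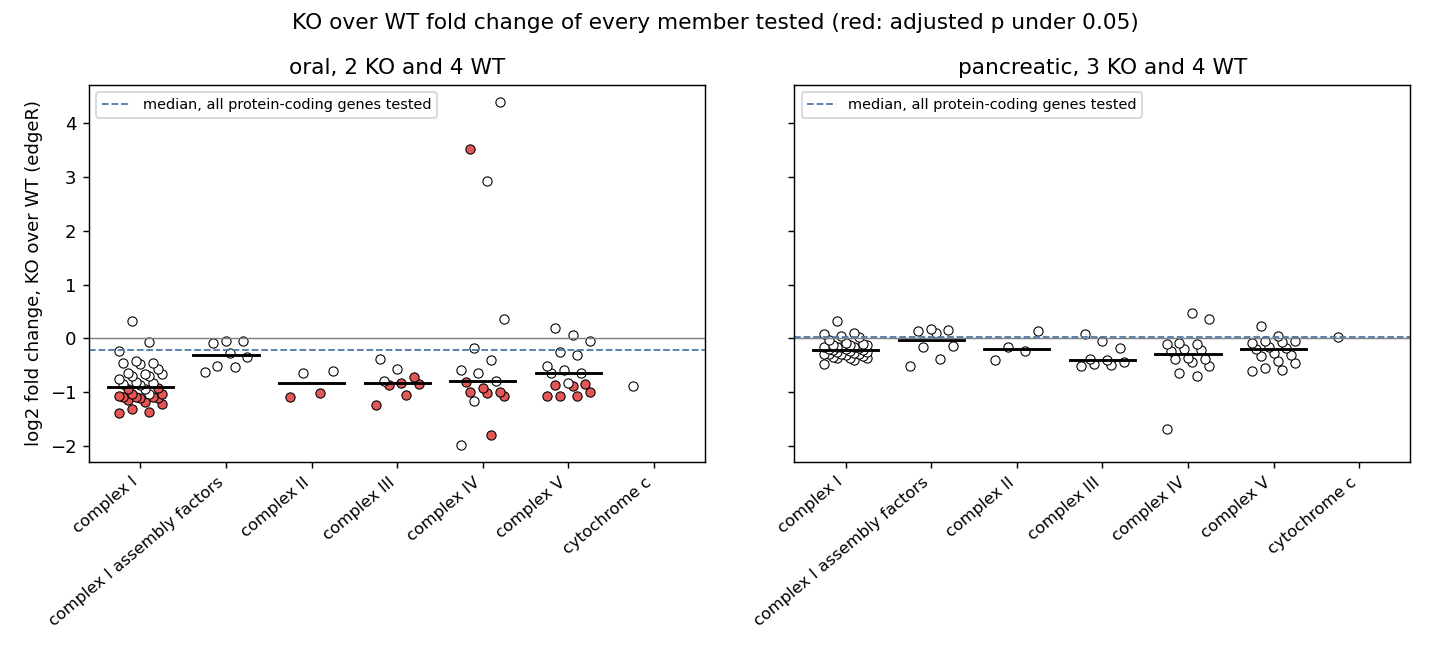
Log2 fold change of KO over WT for every member tested, by complex, in oral tumors (left) and pancreatic tumors (right); red points have an adjusted p under 0.05, black bars are group medians and the dashed line is the median of all protein-coding genes tested. In oral tumors the subunit groups have medians between -0.89 and -0.64 and the assembly factors -0.31; in pancreatic tumors no point is red and the medians lie between -0.40 and -0.02.

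Complex I, the NADH dehydrogenase, is the largest of the complexes. Of its 36 subunits 16 were lower, 35 had a fold change below zero, and the median was -0.89 on the log2 scale. The 7 core subunits, which carry the flavin and iron-sulfur centers, had a median of -0.91 with 4 called, and the 29 accessory subunits had a median of -0.87 with 12 called. Ndufs8, a core subunit that holds iron-sulfur clusters, was at 38.4, 46.3, 49.8 and 42.0 CPM in oral WT tumors and at 15.1 and 17.2 CPM in oral KO tumors. The KO tumors were both below the lowest WT tumor, and the log2 fold change was -1.37 (SE 0.21, adjusted p = 0.019). Ndufv1, which binds NADH and flavin, was at 72.1, 84.6, 106.6 and 87.3 CPM in WT tumors and at 37.7 and 40.2 CPM in KO tumors, again without overlap (log2 fold change -1.09, SE 0.22, adjusted p = 0.0266). Its partner Ndufv2 changed by -1.15 (SE 0.26, adjusted p = 0.0334).

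Among the accessory subunits of complex I, Ndufb3 changed the most. It was at 24.7, 24.7, 34.1 and 22.9 CPM in oral WT tumors and at 9.13 and 10.3 CPM in oral KO tumors (log2 fold change -1.38, SE 0.26, adjusted p = 0.0249). Ndufa11, a subunit of the membrane arm (-1.18), Ndufa8 and Ndufs5, which face the intermembrane space (-1.11 and -1.03), and Ndufa10, whose fold resembles that of nucleoside kinases (-1.11), were also lower. Ndufa12, which sits on the matrix arm, was at 46.2, 38.8, 55.9 and 63.9 CPM in WT tumors and at 14.8 and 24.4 CPM in KO tumors (-1.31, SE 0.30, adjusted p = 0.0348). Not every subunit passed the test. Ndufs1, the largest iron-sulfur subunit, was at 86.0, 86.4, 98.4 and 86.3 CPM in WT tumors and at 69.7 and 74.3 CPM in KO tumors. Its log2 fold change of -0.23 did not pass although the groups did not overlap (SE 0.17, adjusted p = 0.344). Ndufs1 ranked highest in complex I by level per length, but that rank rests on a length of 651 bases, the median over its annotated protein-coding transcripts. Ndufb2 was the only complex I subunit above zero, at 0.32 (SE 0.28, adjusted p = 0.436), and its KO tumors (18.0 and 19.7 CPM) lay within the WT range (11.5 to 20.2 CPM).

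The complex I assembly factors, Ndufaf1 to Ndufaf8, are chaperones that build the enzyme and are not part of it. None of the 8 passed the test in oral tumors (1 at an unadjusted p under 0.05), and their fold changes ran from -0.63 for Ndufaf3 to -0.04 for Ndufaf4 with a median of -0.31. They summed to 75.3 and 92.4 protein-coding CPM in oral KO tumors, on either side of the WT range of 83.5 to 89.2. For the subunits of complex I the same sum was 1246 and 1188 in KO tumors and 1714 to 2196 in WT tumors. The difference between subunits and assembly factors was not tested.

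Complex II, succinate dehydrogenase, has 4 subunits and no mitochondrially encoded part. Sdha, the flavoprotein that oxidizes succinate, was at 143.4, 157.1, 167.7 and 120.9 CPM in oral WT tumors and at 59.1 and 71.9 CPM in oral KO tumors (log2 fold change -1.09, SE 0.21, adjusted p = 0.025). Sdhb, the iron-sulfur subunit, was at 55.7, 57.2, 75.3 and 48.4 CPM in WT tumors and at 28.3 and 27.4 CPM in KO tumors (-1.01, SE 0.24, adjusted p = 0.036). The membrane anchors Sdhc and Sdhd had values of -0.64 and -0.60, did not pass the test, and also did not overlap between the groups. In the tricarboxylic acid cycle beside it, 7 of 17 genes were lower and none higher, against 4.58% and 9.2% of all genes, with a median of -0.73. The 2 with the smallest p were Sucla2, a succinyl-CoA ligase subunit (-1.07, SE 0.20, adjusted p = 0.0242), and Idh3g, a subunit of the NAD-dependent isocitrate dehydrogenase (-1.21, SE 0.25, adjusted p = 0.0296).

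In complex III, the cytochrome bc1 complex, 6 of 9 subunits were lower and all 9 were below zero, with a median of -0.83. Uqcrb, a small subunit that contacts the ubiquinone pocket, was at 75.6, 73.2, 97.5 and 92.4 CPM in oral WT tumors and at 39.2 and 29.0 CPM in oral KO tumors (log2 fold change -1.23, SE 0.24, adjusted p = 0.0257). Uqcrc1, a core protein, changed by -0.87 (SE 0.20, adjusted p = 0.0347). It ranked highest in complex III by level per length, with a median annotated transcript length of 533 bases. Cyc1, the cytochrome c1 heme protein, was lower with a smaller change of -0.71 (SE 0.19), from 57.8 to 74.5 CPM in WT tumors and 38.4 and 37.8 CPM in KO tumors, and its adjusted p lay just inside the threshold. Uqcrfs1, the Rieske iron-sulfur protein, had a value of -0.78 and did not pass the test (adjusted p = 0.0996). Cycs, which carries electrons from complex III to complex IV, was at 57.2, 47.4, 70.4 and 50.3 CPM in WT tumors and at 23.5 and 34.8 CPM in KO tumors (-0.88, SE 0.26, adjusted p = 0.0598), a difference that did not pass although the groups did not overlap.

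Complex IV, cytochrome c oxidase, contained members on both sides. Of 18 tested, 7 were lower, 1 was higher and the median was -0.79. Cox5b, the zinc-binding subunit on the matrix side, had the smallest p of all members. It was at 92.2, 100.9, 131.0 and 95.3 CPM in oral WT tumors and at 33.1 and 23.9 CPM in oral KO tumors, a 3.48-fold lower level (log2 fold change -1.80, SE 0.26, adjusted p = 0.0189). Cox6a1, the form of subunit VIa outside muscle, was at 98.8, 120.2, 128.1 and 103.5 CPM in WT tumors and at 51.6 and 49.6 CPM in KO tumors (-1.08, SE 0.19, adjusted p = 0.0236). The widely used forms Cox4i1 (-1.01), Cox6b1 (-0.99), Cox8a (-0.99) and Cox7b (-0.92) were lower as well. Cox7a2 (-0.64, adjusted p = 0.104) and its relative Cox7a2l, which takes part in joining complexes III and IV (-1.16, adjusted p = 0.0526), did not pass the test, and neither did Ndufa4 (-0.58, adjusted p = 0.306).

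**Figure D3:**
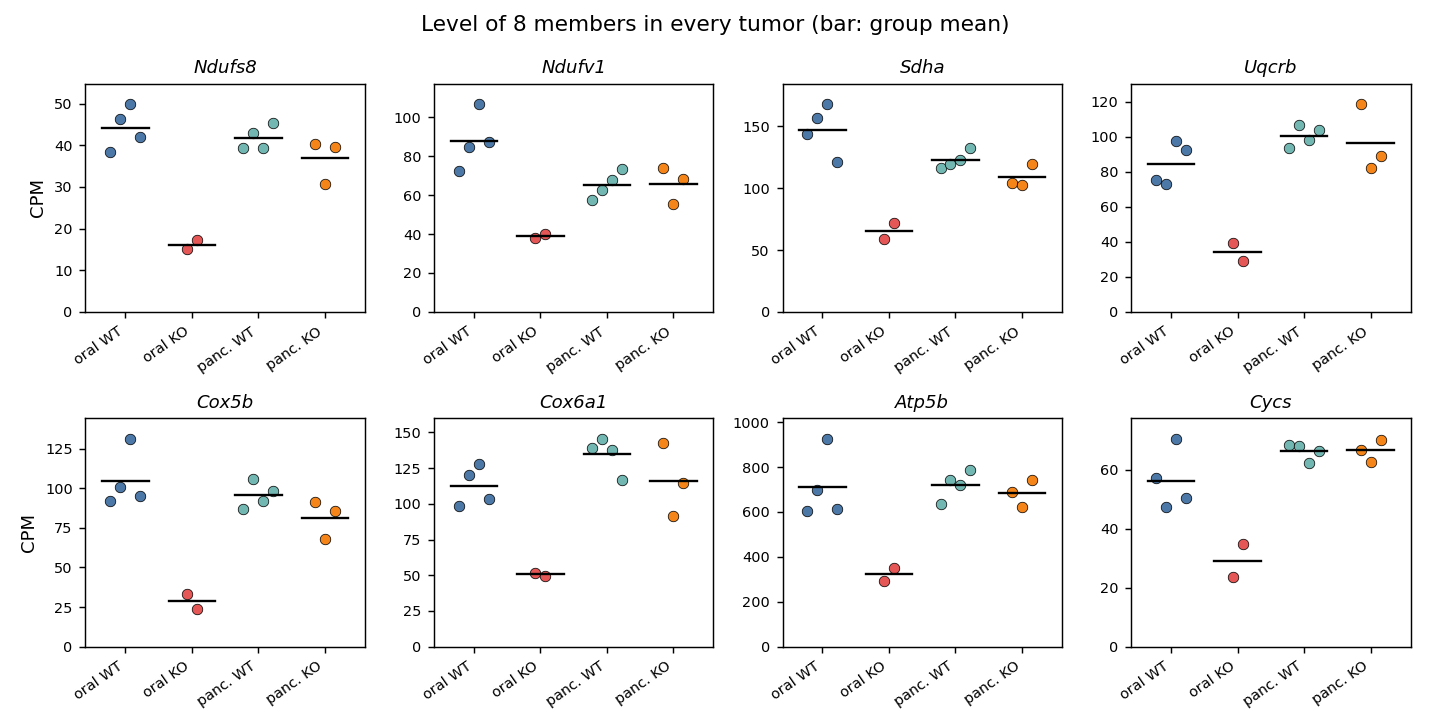
Level of 8 members in every tumor (CPM, linear axis from 0), with 1 point per tumor and a bar at the group mean. For each of the 8 genes both oral KO points lie below all oral WT points, while the pancreatic KO and WT points are nearer to each other, as for Ndufv1 (57.3 to 73.7 CPM in pancreatic WT tumors and 55.4 to 73.7 CPM in pancreatic KO tumors).

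In complex V, the ATP synthase, 7 of 17 genes were lower and the median was -0.64. Atp5b, the catalytic beta subunit and the member with the highest level per length, was at 603.5, 696.0, 924.3 and 614.3 CPM in oral WT tumors and at 294.1 and 352.4 CPM in oral KO tumors (log2 fold change -1.06, SE 0.26, adjusted p = 0.0417). Atp5f1, the b subunit of the peripheral stalk, was at 146.5, 161.0, 193.5 and 157.2 CPM in WT tumors and at 78.3 and 70.3 CPM in KO tumors (-1.07, SE 0.20, adjusted p = 0.0248). Atp5j2, the small membrane subunit f, changed by -1.07 (SE 0.24, adjusted p = 0.0346). The 3 genes for the c subunit of the membrane ring, Atp5g1, Atp5g2 and Atp5g3, encode the same mature protein with different import sequences. Atp5g3 had a value of -0.83 (adjusted p = 0.0537), while Atp5g1 (-0.05) and Atp5g2 (0.20) had fold changes near zero and KO tumors within or across the WT range. Atp5g3 supplied 84.4% ± 1.74 of the c-subunit transcripts per length in oral WT tumors (SD, n = 4) and 70.5% and 78.1% in oral KO tumors. These shares depend on the median annotated lengths used, 2675.5 bases for Atp5g1, 683 for Atp5g2 and 718.5 for Atp5g3. Atp5g2 shares 40.2% of its 31-base sequences with other genes, so its counts are uncertain.

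The isoforms of complex IV did not move together. Cox6a2, Cox7a1 and Cox8b are the forms used in striated muscle, and all had low counts. Cox7a1 was at 0.20, 0.22, 0.13 and 0.60 CPM in oral WT tumors (4 to 26 counts) and at 5.75 and 0.62 CPM in oral KO tumors (58 and 16 counts). Its rise (log2 fold change 3.52, SE 0.92, adjusted p = 0.0474) rested on oral KO replicate 1, since replicate 2 was level with oral WT replicate 4. Without oral WT replicate 1, 2 or 3 no member was called higher. Of all genes, 43 of 21631, 19 of 22060 and 955 of 22155 were called higher in those fits. Cox6a2 (5.75 and 1.44 CPM in KO tumors, 1.86 CPM in oral WT replicate 4, and 0.06 CPM or less in the other WT tumors) and Cox8b (4.37 and 0.43 CPM in KO tumors, 0.39 CPM in oral WT replicate 4) did not pass the test, with an adjusted p of 0.261 and 0.0864. The order of the oral tumors was the same for the skeletal muscle marker sum, 6346 CPM in KO replicate 1, 3530 CPM in KO replicate 2 and 744.9 CPM in WT replicate 4, except that Cox6a2 was higher in WT replicate 4 than in KO replicate 2. All 23 muscle markers were above zero. Of these, 2 were called higher, Myh4 and Ryr1, a fast myosin heavy chain and the calcium release channel of muscle, against 9.2% of all genes. The part of muscle RNA in the isoform levels was not tested.

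**Figure D4:**
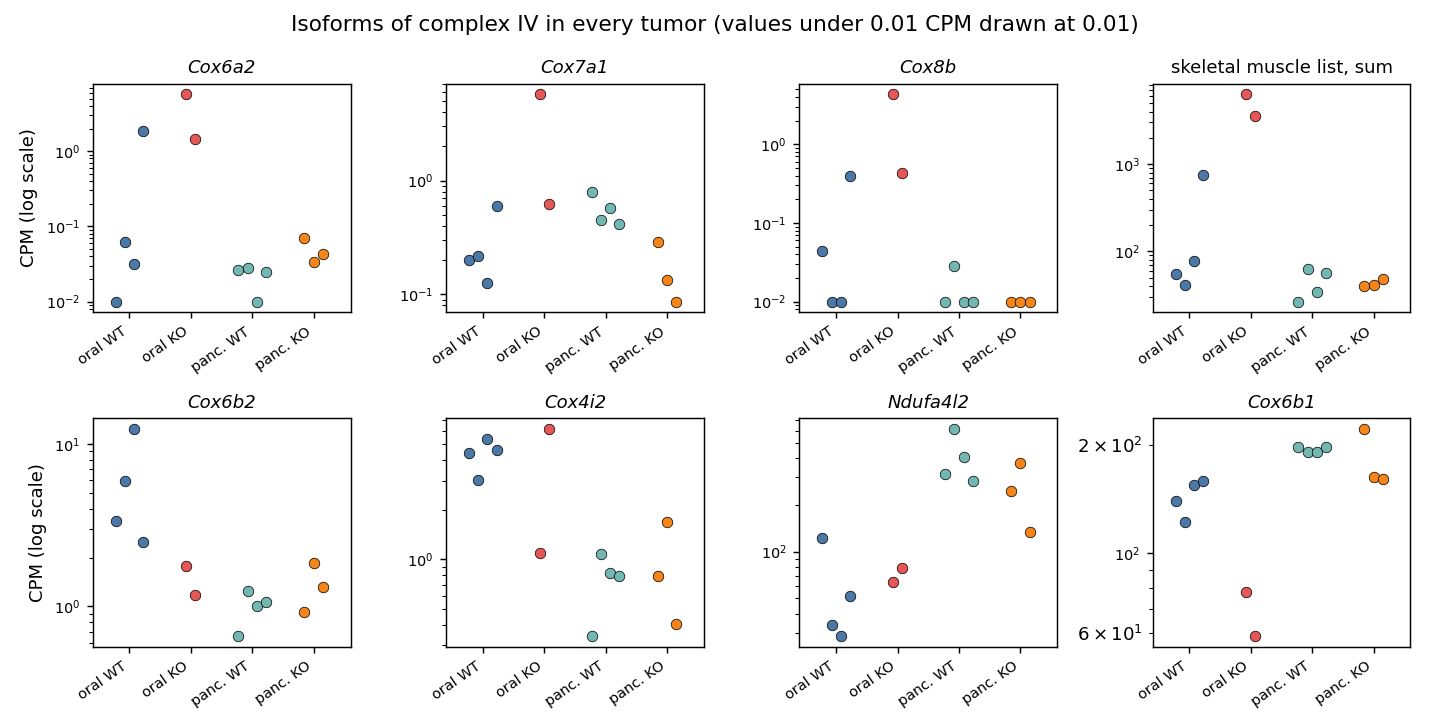
Level of 7 complex IV genes and of the summed skeletal muscle list in every tumor (CPM, log axis, values under 0.01 drawn at 0.01). Cox6a2, Cox7a1 and Cox8b are highest in oral KO replicate 1, the tumor with the highest muscle sum (6346 CPM), whereas Ndufa4l2 is at 133.5 CPM or more in every pancreatic tumor and at most 121.8 CPM in the oral tumors.

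The second comparison asked the same question in pancreatic tumors. No member passed the threshold in the pancreatic KO tumors by edgeR, where 0.357% of all genes tested were called lower and 0.349% higher. At an unadjusted p under 0.05, 32 of 91 members were lower and 1 was higher, against 8.77% of all genes called lower by that rule. The fold change was below zero for 75 of the 91, and the median was -0.22 beside 0.02 for all genes and for protein-coding genes. All 3 KO tumors lay below all 4 WT tumors for 37 members, against 8.3% of all genes. DESeq2 called 14 members lower and none higher, with 4.55% of all genes called lower: Atp5mpl, Cox7a2, Cox8a, Cox7b, Ndufa7, Uqcrfs1, Ndufa9, Cox7c, Atp5j2, Atp5o, Cox7a1, Uqcr10, Atp5k and Atp5l.

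The pancreatic values by complex were -0.21 for complex I, -0.20 for complex II, -0.40 for complex III, -0.30 for complex IV, -0.20 for complex V and -0.02 for the assembly factors, as medians of log2 fold changes. Cox7a2, the liver-type form of subunit VIIa, had the smallest adjusted p (0.0755). It was at 63.0, 59.0, 59.4 and 55.0 CPM in pancreatic WT tumors and at 45.0, 38.2 and 40.6 CPM in pancreatic KO tumors, with a log2 fold change of -0.51 (SE 0.10). The groups did not overlap. Cox8a, the widely used form of subunit VIII, was at 124.2, 130.4, 125.9 and 121.8 CPM in WT tumors and at 91.7, 86.3 and 98.0 CPM in KO tumors (-0.44, SE 0.09, adjusted p = 0.0818). Atp5mpl, a small membrane protein of the ATP synthase, was at 24.1, 25.1, 23.8 and 24.7 CPM in WT tumors and at 18.0, 15.01 and 16.5 CPM in KO tumors (-0.55, SE 0.12, adjusted p = 0.0831).

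The same held on other complexes. Ndufa7 (-0.47, SE 0.11, adjusted p = 0.098) and Uqcrfs1 (-0.40, SE 0.10, adjusted p = 0.113) were without overlap between the groups and did not pass. In complex II, Sdhd was at -0.41 (SE 0.12, adjusted p = 0.159) and Sdhb at 0.14 (SE 0.12, adjusted p = 0.633). Ndufa12, an accessory subunit of complex I, was the 1 member higher at an unadjusted p under 0.05. It was at 50.1, 51.5, 48.8 and 53.2 CPM in pancreatic WT tumors and at 72.1, 51.5 and 65.8 CPM in KO tumors (0.32, SE 0.13, adjusted p = 0.274), and KO replicate 2 lay within the WT range. Cycs (0.02, SE 0.10), Atp5b (-0.07, SE 0.13) and Uqcrc1 (0.07, SE 0.14) had values near zero.

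Taken tumor by tumor, the 3 pancreatic KO tumors differed from each other. The median distance from the WT mean over 90 members was -0.11, -0.38 and -0.24 in KO replicates 1, 2 and 3, while the WT tumors lay between -0.05 and 0.04 and other protein-coding genes between -0.02 and 0.02 in the KO tumors. The members summed to 7109, 6035 and 6860 protein-coding CPM in KO tumors and to between 6794 and 7380 in WT tumors, so the groups overlapped on this scale. Skeletal muscle markers summed to 40.5, 40.9 and 48.4 CPM in KO replicates 1, 2 and 3. The WT tumors lay between 26.7 and 62.4 CPM. Pancreatic acinar markers reached 336.2 CPM in KO replicate 3 against 17.1 CPM or less in the other pancreatic tumors. Adipocyte markers (12 genes) summed to 2300, 560 and 839.6 CPM in KO replicates 1, 2 and 3. In the WT tumors their sum was between 1523 and 3000 CPM. The part of these marker sums in the member levels was not tested.

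Pancreatic fold changes went with transcript length within the members. Members with a median transcript length under 700 bases had a median log2 fold change of -0.30 (43 genes), those from 700 to under 1200 bases -0.19 (34 genes) and those of 1200 bases or more -0.07 (14 genes). Other protein-coding genes in the same length ranges had medians of -0.05, -0.02 and 0.04. Spearman's rho between log2 fold change and length, across genes that share all 7 libraries and are not independent replicates, was 0.40 over 91 members and 0.08 over 16764 other protein-coding genes. In oral tumors the medians of the members were -0.78, -0.83 and -0.83 for the 3 ranges and rho was -0.02 over 93 members, beside -0.45, -0.45 and -0.14 for other protein-coding genes with rho 0.22. Between WT tumors, oral over pancreatic, the medians of the members were -0.11, 0.003 and 0.09 and rho was 0.31 over 91 members. Other protein-coding genes had rho 0.05 there. A relation to length was thus also seen in a comparison without KO tumors. Lengths are medians over annotated transcripts. The lowest pancreatic values of complex V were those of Atp5k (-0.61) and Atp5e (-0.58), small subunits e and epsilon, and the lowest of complex III was that of Uqcr11 (-0.51). All 3 have a median length of 445 bases or less. The lowest was Ndufa7 in complex I (-0.47, 528 bases) and Sdhd in complex II (-0.41, 1231 bases). In complex IV it was Cox7a1 (-1.69, 439 bases, low counts), followed by Ndufa4l2 (-0.69, 934 bases). The part of transcript length in these values was not tested.

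**Figure D5:**
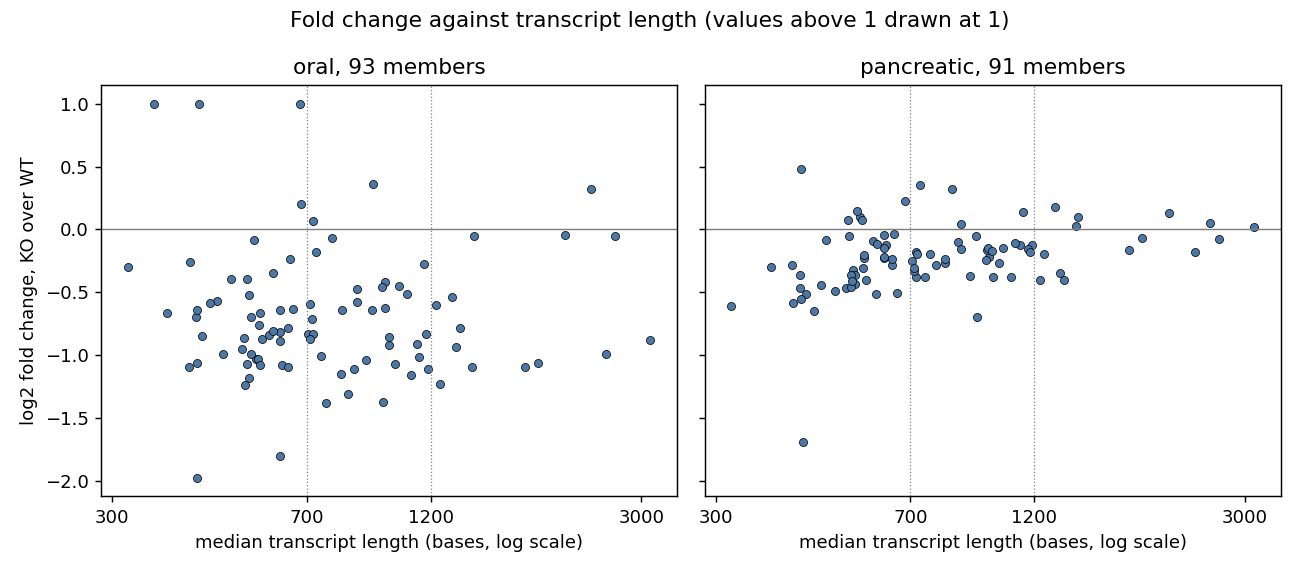
Log2 fold change of KO over WT (vertical axis, values above 1 drawn at 1) against the median transcript length of each member (horizontal log axis, bases), for 93 members in oral tumors and 91 in pancreatic tumors; dotted lines mark 700 and 1200 bases. In pancreatic tumors the medians go from -0.30 at the left to -0.07 at the right, and in oral tumors the medians are -0.78, -0.83 and -0.83.

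A test of the difference between the KO effects of the 2 tissues (interaction over all 13 tumors, oral minus pancreatic) called 32 members lower and 1 higher, where 7.62% of all genes were lower and 7.71% higher. The median difference was -0.62 on the log2 scale, beside -0.28 for protein-coding genes. By complex, 16 of 36 complex I subunits were called, 2 of 4 in complex II, 3 of 9 in complex III, 3 of 18 in complex IV, 7 of 17 in complex V and Cycs, and none of the 8 assembly factors (1 at an unadjusted p under 0.05, against 17.3% of all genes). The difference was -1.65 for Cox5b (SE 0.25, adjusted p = 0.00631), -1.69 for Ndufa12 (SE 0.31, adjusted p = 0.00967), -1.27 for Ndufs8 (SE 0.21, adjusted p = 0.00794) and -1.22 for Sdhb (SE 0.23, adjusted p = 0.0109). Members with the smallest p in the pancreas did not pass this test, with -0.19 for Cox7a2 (adjusted p = 0.581) and -0.16 for Atp5mpl (adjusted p = 0.73). The oral and pancreatic log2 fold changes were -0.64 and -0.51 for Cox7a2 and -0.64 and -0.55 for Atp5mpl, and neither gene passed the threshold in either tissue by edgeR. DESeq2 called both lower in pancreatic tumors (adjusted p = 0.000584 for Cox7a2 and 0.000138 for Atp5mpl). Leaving out pancreatic WT replicate 3 brought the count of lower members to 19, beside 3.39% of all genes. Without pancreatic KO replicate 1 it was 21 (5.37%) and without pancreatic KO replicate 3 it was 18 (3.43%). Without oral KO replicate 2, which leaves 1 oral KO tumor, the median difference was -0.49. A fit on protein-coding genes alone called 12, beside 3.31% of all genes in that fit.

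The other genes of the pathway were described from lists. Of 40 assembly factors that the rule on symbols did not reach, 4 were lower in oral KO tumors, against 4.58% of all genes, with a median of -0.39. None was called in pancreatic tumors by edgeR (1 lower and 1 higher at an unadjusted p under 0.05, median -0.05). Coa5 (-0.95, SE 0.19, adjusted p = 0.0262) and Surf1 (-1.03, SE 0.23, adjusted p = 0.0334), both needed to build complex IV, had the smallest p. Of 12 factors that drive transcription of respiratory genes none was called in either tissue by edgeR (2 lower in oral and 2 higher in pancreatic tumors at an unadjusted p under 0.05, medians -0.16 and 0.03). Gabpa, the DNA-binding part of nuclear respiratory factor 2, was at 79.7, 84.9, 131.6 and 85.4 CPM in oral WT tumors and at 51.0 and 55.5 CPM in oral KO tumors (-0.77, SE 0.26, adjusted p = 0.0865), and its difference between tissues passed the test (-1.08, SE 0.28, adjusted p = 0.027). Tfam, which packages mitochondrial DNA and starts its transcription, had a value of -0.77 (SE 0.31, adjusted p = 0.124) in oral tumors.

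The 13 mRNAs encoded by mitochondrial DNA, which supply the remaining subunits of complexes I, III, IV and V, did not follow their nuclear partners in oral tumors. Of the 13, none was lower and 1 was higher, against 4.58% and 9.2% of all genes. The median was 0.24, with 10 above zero. In pancreatic tumors none was called by edgeR (2 lower at an unadjusted p under 0.05), and 12 were below zero with a median of -0.52. The summed level was 40930 and 58120 CPM in oral KO tumors and 32770 to 43570 CPM in oral WT tumors. The 1 higher mRNA was mt-Nd3, at 785.0 and 659.1 CPM in oral KO tumors and at 26.6 to 53.1 CPM in oral WT tumors. Mitochondrial sequences have copies in the nuclear genome, so the counts of a single mitochondrial mRNA are uncertain.

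Comparing WT tumors between tissues, 6 of 91 members were lower in oral than in pancreatic tumors and 2 were higher, against 11.6% and 12.1% of all genes, and the median of the members was -0.04. Adipocyte markers summed to between 135.7 and 620.3 CPM in oral WT tumors and to between 1523 and 3000 CPM in pancreatic WT tumors, and their part in the differences was not tested. Ndufa4l2, an isoform of Ndufa4 known as a target of hypoxia signaling, was at 121.8, 33.6, 28.6 and 51.6 CPM in oral WT tumors and at 316.4, 616.4, 405.3 and 285.1 CPM in pancreatic WT tumors (log2 difference -2.78, SE 0.50, adjusted p = 0.00563). Per length, Ndufa4l2 made up 71.2% ± 8.73 (SD, n = 4) of the transcripts of Ndufa4 and Ndufa4l2 in pancreatic WT tumors, 30.5% ± 17.9 (SD, n = 4) in oral WT tumors and 69.2% ± 12.6 (SD, n = 3) in pancreatic KO tumors. Oral KO replicates 1 and 2 had 36.5% and 63.2%. Neither KO comparison called it (adjusted p = 0.683 in oral and 0.436 in pancreatic tumors).

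Cox4i2 and Cox6b2 went the other way. Cox4i2, the form of subunit IV tied to lung and low oxygen, was at 4.39, 3.05, 5.38 and 4.64 CPM in oral WT tumors and at 0.34, 1.08, 0.82 and 0.79 CPM in pancreatic WT tumors (2.53, SE 0.38, adjusted p = 0.00256), yet it made up only 2.76% ± 0.778 (SD, n = 4) of subunit IV transcripts per length in oral WT tumors. Cox6b2, the testis form of subunit VIb, was at 3.35, 5.91, 12.4 and 2.48 CPM in oral WT tumors and at 0.66, 1.25, 1.00 and 1.06 CPM in pancreatic WT tumors (2.60, SE 0.52, adjusted p = 0.00799). In oral KO tumors Cox6b2 was at 1.79 and 1.17 CPM, below every oral WT tumor, a value of -1.97 that did not pass the test (SE 0.76, adjusted p = 0.113). The main form Cox6b1 was lower in oral WT tumors by 0.43 (SE 0.11, adjusted p = 0.0241), as were Cox7a2 by 0.51, Ndufa3 by 0.69, Atp5d by 0.40 and Uqcrh by 0.39. Without oral WT replicate 3, the tumor with the highest member levels, 13 members were called lower against 10.2% of all genes. Without a pancreatic WT tumor or oral WT replicate 1 or 2, 2 or 3 were, against 8.22% to 9.79% of all genes. Cox8c and the second Atp5o identifier were at 0 in every tumor, and Cox7b2 had at most 2 counts in any tumor.

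RefSeq promoters (GRCm38.p6) were found for 77 of the 96 members and searched in the 250 bases before the start for motifs of factors known to drive respiratory genes. The letters GCGCATGCG of NRF1 stood on either strand in 8 of the 77 (10.4%) and in 1.64% of all 27025 genes with a promoter. The letters CCGGAAG, bound by GABPA and other ETS factors, stood in 14 (18.2%) and in 7.83% of all genes, AAGGTCA of ESRRA in 5 (6.49%) and in 4.7%, and AAGATGGCG of YY1 in 1 (1.3%) and in 0.71%. None of these motifs contains another, though CCGGAAG can overlap AAGATGGCG or AAGGTCA in the letters AAG. The oral median was -0.70 for the 8 members with the NRF1 letters and -0.84 for those without, and -0.59 with and -0.87 without the GABPA letters. In pancreatic tumors the medians were -0.15 with and -0.22 without the NRF1 letters, and -0.32 with and -0.20 without the GABPA letters, so the order for GABPA was the opposite of that in oral tumors. The promoters of the members held a median of 15 CG pairs in 250 bases, against 6 over all genes, with a range from 1 in Cox8b to 35. Shown are the last 100 bases before the start for the carrier gene Cycs (chr6:50566570-50566669, minus strand) with its NRF1 letters in capitals, for the main c-subunit gene Atp5g3 (chr2:73911327-73911426, minus strand) with its ESRRA letters in capitals, and for the muscle form Cox8b (chr7:140900447-140900546, minus strand), which holds none of these letters in this stretch.
Cycs: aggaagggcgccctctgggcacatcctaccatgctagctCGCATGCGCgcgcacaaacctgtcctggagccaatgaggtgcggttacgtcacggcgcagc
Atp5g3: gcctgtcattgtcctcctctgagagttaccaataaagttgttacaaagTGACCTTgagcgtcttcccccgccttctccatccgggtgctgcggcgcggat
Cox8b: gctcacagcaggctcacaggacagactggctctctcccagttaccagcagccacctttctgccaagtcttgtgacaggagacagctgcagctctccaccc
A match of letters is a description of the sequence and was not tied to binding in these tumors.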

How the data were processed

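RNA of 13 mNC tumors was sequenced by the authors, who trimmed reads with Trim Galore 0.6.10, checked them with FastQC 0.12.1, quantified them with strand-aware kallisto 0.50.0 on GENCODE M23 transcripts (GRCm38) and summed them to genes with tximport. The deposited table holds estimated counts per gene, not normalized (27.3% of values not whole), and 753 of 56085 genes had no values. Counts were rounded. Symbols, biotypes and lengths came from GENCODE M21, where 191 genes with values were not found. A length is the median over a gene's annotated protein-coding transcripts, or over all its transcripts where it has none. Which transcripts were expressed was not used, so levels, shares and ranges by length are approximate. The rule for members and all gene lists were chosen with earlier results of these data known.

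Genes reaching 10 counts in 2 or more tumors of a fit were tested with edgeR 4.0.16 (quasi-likelihood, robust, TMM; R 4.3.3), Benjamini-Hochberg over all genes tested; a call is an adjusted p under 0.05. The study used DESeq2 (here 1.42.0) with apeglm (1.24.0), tried as alternatives. SE is the absolute log2 fold change over the square root of F. CPM values use TMM factors over 13 tumors; tumor distances use log2 CPM with a prior count of 2. Depth limits oral KO tumors most, with the smallest totals. Replicates differed beyond sampling noise. Members that share sequence with pseudogenes have uncertain counts, since kallisto divides shared reads between transcripts.

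Members named with values were the 15 called in the oral comparison with the smallest p and any called higher, the highest level per length and the smallest p in each direction per complex, the isoform sets, Sdha to Sdhd, Cyc1, Cycs, members with almost no counts, and 2 genes per other list. Members named outside this rule were chosen after their values were seen. Alternatives were other size factors, no or a stricter count filter, no robust step, the tumor number as a block, DESeq2, protein-coding genes alone, adding genes that share sequence, thinning to the smallest library, 1 fit of 13 tumors, and leaving out each tumor.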

Additional observations from a re-analysis of the deposited data

Results flagged for a closer look

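In 4 groups of 4 tumors, 1 tumor lay far from the others. Ndufb3 was at 34.1 CPM in oral WT replicate 3, where the other oral WT tumors were between 22.9 and 24.7 CPM. Ndufs1 was at 98.4 CPM in the same tumor, beside 86.0 to 86.4 CPM. Cox6a2 was at 1.86 CPM and Cox8b at 0.39 CPM in oral WT replicate 4, beside at most 0.06 and 0.04 CPM in the other oral WT tumors, and this tumor also had the highest skeletal muscle sum among the WT tumors. In all, 84 groups were examined by Dixon's test, which flags about 1 in 20 by chance.

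The KO effect differed between oral and pancreatic tumors, by the interaction test over 13 tumors, for 20 named members. Oral minus pancreatic log2 differences were -1.69 for Ndufa12, -1.27 for Ndufs8, -1.25 for Ndufb3, -1.20 for Ndufs5, -1.18 for Ndufv1, -1.07 for Ndufa8, -1.05 for Ndufa10, -0.946 for Ndufv2 and -0.921 for Ndufa11 in complex I. In complex II they were -1.22 for Sdhb and -0.99 for Sdha, and in complex III -1.26 for Uqcrb and -1.01 for Uqcrc1. Complex IV gave -1.65 for Cox5b, -0.98 for Cox6b1, -0.944 for Cox6a1 and 5.11 for Cox7a1. For Cox7a1 the oral log2 fold change was 3.52 and the pancreatic one -1.69 (SE 0.48, adjusted p = 0.147 by edgeR). Its rise in the oral tumors rested on oral KO replicate 1 (58 counts, beside 4 to 33 in the other tumors). Complex V gave -1.05 for Atp5b and -0.865 for Atp5f1, and Cycs gave -0.953.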

How the results depend on the processing

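Oral KO tumors, with 2 replicates and the smallest totals, limit the depth of every oral call. Percentages in brackets are the share of all genes called lower in the same fit. The count of members lower in oral KO tumors, 38 (4.58%), was 65 in 1 fit of all 13 tumors (14.1%) and 0 among protein-coding genes alone (0.0489%). With an oral WT tumor left out it was between 0 and 31 (0.0771% to 4.46%). The count higher, 1, was 0 with 10 counts required in every tumor, among protein-coding genes alone and after thinning, 2 with DESeq2 with or without apeglm and in 1 fit of all 13 tumors, and between 0 and 3 with a tumor left out. In pancreatic tumors 0 (0.357%) became 14 lower with DESeq2 with or without apeglm (4.55%), and stayed 0 with each tumor left out (0.058% to 0.785%). Between WT tumors, 6 lower (11.6%) became 3 without a count filter (5.83%) and 2 to 13 with a tumor left out (8.22% to 12.8%). For the difference between tissues, 32 lower (7.62%) became 12 among protein-coding genes alone (3.31%) and 21 after thinning (5.5%). With a tumor other than an oral KO tumor left out, it became 18 to 38 (3.39% to 9.94%). The 1 higher became 0 with 10 counts in every tumor and after thinning, and 1 to 2 with a tumor other than an oral KO tumor left out. Its median of -0.62 became -0.43 with 10 counts in every tumor, -0.41 among protein-coding genes alone, and lay between -0.77 and -0.48 with a tumor left out. Among named members, Atp5g2 reversed to -0.26 in pancreatic tumors when genes sharing its sequence were added, and Uqcrc1 lay between -0.034 and 0.17 there with a tumor left out. The cause was not tested, apart from the smaller number of tumors or genes by construction.

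With the tumor number as a replicate block, 0 members were called lower and 0 higher in oral and 0 in pancreatic tumors. Called lower were 2 between WT tumors, beside 7.93% of all genes, and 14 for the difference between tissues, beside 3.05%. At an unadjusted p under 0.05 (edgeR), 44 members were lower in oral tumors against 10.7% of all genes. In pancreatic tumors 27 were, against 10.5%. Of all genes, the block fits called 0.0985% lower in oral and 2.02% lower in pancreatic tumors, against 4.58% and 0.357% without the block. Correlations between the deviations of tumors with the same number were -0.08 and -0.04 in oral and 0.32, -0.02 and -0.07 in pancreatic tumors. Between WT tumors they were -0.07 to 0.03. With only 2 oral KO tumors, their deviations are mirror images, so the oral values cannot show a pairing. The pancreatic value of 0.32, for the 2 replicates numbered 1, was the highest between those groups. Whether equal numbers mark a pairing cannot be told from the labels.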
